A study of Homo sapiens with 12 samples.

Results

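Mitochondrial ribosomal proteins build the mitoribosome, the particle that translates the messages of mitochondrial DNA. Their genes lie in the nucleus, and the proteins are made in the cytosol and imported. The products of the mitoribosome are core subunits of the respiratory chain and of ATP synthase, so its proteins are needed for oxidative phosphorylation. The large subunit joins amino acids and the small subunit reads the message. Some mitoribosomal proteins descend from bacterial ribosomal proteins, and others have no bacterial counterpart. The genes were taken by symbol, MRPL or MRPS with a number and at most one letter A to C, and by a normalised read count of at least 10 in at least 3 of 12 libraries. All 77 genes with such symbols passed the value rule, among 19907 genes in the files and 15957 that passed it. By name 48 belong to the large and 29 to the small subunit. By structure 50 are large, 26 are small, and MRPS36 belongs to neither.

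The cells were MDA-MB-231, a human triple-negative breast cancer line. They expressed the glucocorticoid receptor with a serine-to-alanine mutation (S134A-GR) or the wild-type receptor (WT-GR). Every group was starved for 18 h in IMEM with 1% DCC, and then received 1 µM dexamethasone (Dex), a synthetic glucocorticoid, or vehicle for 6 h. The 4 groups of 3 libraries each were S134A-GR with Dex, S134A-GR with vehicle, WT-GR with Dex and WT-GR with vehicle. Whether a genotype is a clone or a pool, and whether its libraries come from separate cultures, is not given in the sources used here. The p-values therefore measure the spread between these libraries, which may be technical.

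Recovered depth ran from 56.4 to 100.6 M reads per library, and the shallowest libraries were replicate 1 of WT-GR Dex and of WT-GR vehicle. WT-GR Dex replicates 2 and 3 held fewer genes with exactly 1 read (193 and 210) than the other libraries (352 to 409). The mesenchymal genes VIM, CD44, AXL and CAV1 had medians of 35851 or more, while the medians of ESR1, CDH1 and the blood cell gene PTPRC were 8.0 or less. EPCAM ran from 315 to 1093, and the medians of PECAM1, COL1A1 and PDGFRB, genes of endothelial and stromal cells, were 1675, 1547 and 2032. CDH5, another endothelial gene, had a median of 106. The Dex files carry shifted gene names, so their values were named by line order from the vehicle files. Over the 77 genes matching by line gave correlations of 0.9883 to 0.9927 between the log2 values of a Dex library and the vehicle mean. Matching by name gave 0.0034 to 0.0509 over the 58 genes it could place.

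Promoter sequence was available for 68 of the 77 genes, as RefSeq windows on GRCh38.p14 from 250 bases before to 50 bases after the start. Both strands were searched for fixed letters. The YY1 word, given by the capitals of the first windows printed here, stood in 13 of these promoters (19.1%), against 1.28% of 27305 promoters and 2.61% of 11302 promoters of tested genes. The ETS word CCGGAAG stood in 28 (41.2%), against 10.7% of all promoters and 17.5% of those of tested genes. In 4 genes both words occurred, and in none of them did the matches overlap. A match describes letters and is no evidence of binding. Shown first are 30-base windows, 5′ to 3′ in the direction of the gene, around the YY1 word in genes whose values are described further on; capitals mark the word or its reverse complement.
MRPL32 (chr7:42932142-42932171, gene on the + strand): tacccgcgctCCGCCATCTTtacccgaaga
MRPL38 (chr17:75904859-75904888, gene on the - strand): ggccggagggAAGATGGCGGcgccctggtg
MRPL42 (chr12:93467512-93467541, gene on the + strand): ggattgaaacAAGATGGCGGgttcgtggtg
MRPL50 (chr9:101398576-101398605, gene on the - strand): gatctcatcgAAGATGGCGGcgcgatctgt
MRPL52 (chr14:22829779-22829808, gene on the + strand): acgatgacccAAGATGGCGGagccgtgatt
MRPS10 (chr6:42217833-42217862, gene on the - strand): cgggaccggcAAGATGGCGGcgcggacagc
MRPS18A (chr6:43687763-43687792, gene on the - strand): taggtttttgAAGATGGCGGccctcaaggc
MRPS30 (chr5:44808950-44808979, gene on the + strand): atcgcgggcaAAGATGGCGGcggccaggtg
The letters around the word differed among these genes. In 10 of the 13 promoters the match began after the annotated start. Among other genes named for large genotype differences, the ETS word also stood in the promoters of MRPS10, MRPL52 and MRPS18A. It had no match in those of MRPL19, MRPL41, MRPL49, MRPL50, MRPL55 and MRPS2, and no promoter sequence was available for MRPL21. Whether the ETS word goes with a genotype difference was not tested. In the same way as above, 3 windows show the ETS word in genes with large genotype differences, as examples.
MRPL48 (chr11:73787800-73787829, gene on the + strand): aatttcagaagCTTCCGGaactaaaatgat
MRPS21 (chr1:150293839-150293868, gene on the + strand): cgtaatttccgCTTCCGGtagtgagaaccc
MRPS31 (chr13:40771204-40771233, gene on the - strand): aaggcgccaggCCGGAAGcggaagagaggg
The TATA word TATAAA stood in 2.94% of the members' promoters, against 6.14% of those of tested genes. The NRF1 word stood in 1 promoter, that of MRPL17 (1.47%), against 1.36% and 2.14%. The palindromic glucocorticoid response element had no match among the 68 windows, against 0.388% of all promoters and 0.221% of those of tested genes; this says only that these letters are not in these windows. A gene that starts on the opposite strand within 1000 bp lay beside 18 of the 77 genes (23.4%), against 10.1% of 13503 placed genes. In 1 such pair both genes are members, MRPL46 and MRPS11, which start 34 bp apart.

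The 77 genes were expressed over a wide range. Per kb of principal transcript (GENCODE 29), the highest mean levels over 12 libraries were those of MRPL51, with 10717 normalised reads per kb, of MRPL12, which forms the stalk that recruits translation factors, with 9193, and of MRPL52, with 8568. The lowest were MRPS18B with 9.2, MRPS24 with 126 and MRPL42 with 274. The level of MRPL42 is divided by an annotated transcript of 15582 bases. Its mean normalised read count was 4272. MRPS18B and MRPS24 were also the members nearest the value rule, with mean counts of 14.1 and 89.1, and no member lay outside it.

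The positions of the 2 low members are given here, and the cause of their low values was not tested. MRPS18B, a paralog of a bacterial small-subunit protein, lies in the major histocompatibility region of chromosome 6. In that region 63 of 94 genes had a mean value under 100, against 208 of 715 genes on the rest of the chromosome. MRPS24 shares exon sequence with the read-through gene URGCP-MRPS24 in GENCODE 29. In all, 34 of the 77 genes overlap the exons of another gene, 24 on the opposite strand and 13 on the same strand. The counting rule for such reads is not given in the sources used here.

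**Figure D1:**
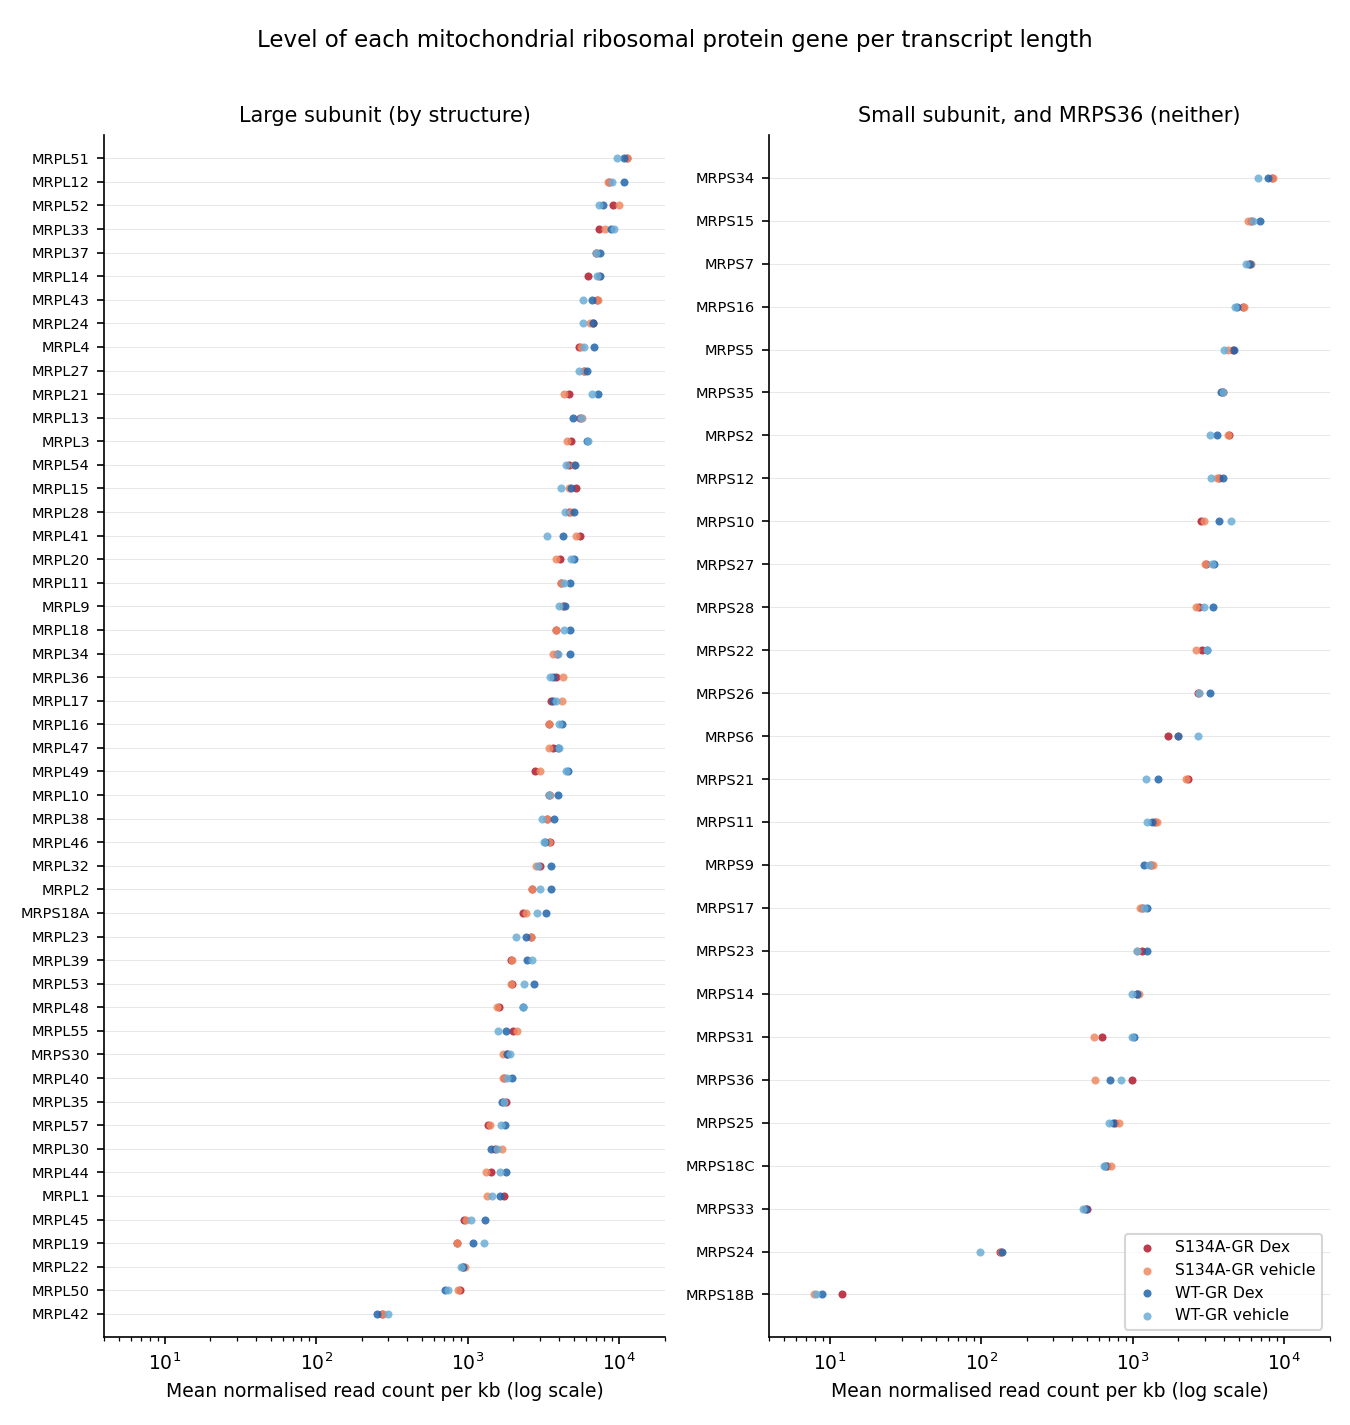
Mean normalised read count per kb of principal transcript (log axis) for each of the 77 genes in each of the 4 groups of 3 libraries, with large-subunit genes on the left and small-subunit genes and MRPS36 on the right, ordered by mean level. MRPL51 stands at the top with 10717 and MRPS18B at the bottom with 9.2, and the 4 points of most genes lie close together on this scale.

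Replicates of a group were close for these genes. The median SD of the log2 values was 0.058 in S134A-GR Dex, 0.042 in S134A-GR vehicle, 0.091 in WT-GR Dex and 0.073 in WT-GR vehicle. Over all tested genes it was 0.091, 0.065, 0.148 and 0.094 in the same order of groups. A few members varied more. MRPS36, now known as a part of the 2-oxoglutarate dehydrogenase complex, had 1435, 784 and 1608 in S134A-GR Dex and 834, 1492 and 907 in WT-GR vehicle. MRPL45 had 1856, 1648 and 3117 in WT-GR Dex, and MRPL23 had 1520, 2669 and 1549 in S134A-GR vehicle.

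The members took a nearly constant share of all normalised reads, from 0.384 to 0.425% per library. The mean share was 0.413 ± 0.004% in S134A-GR Dex, 0.421 ± 0.006% in S134A-GR vehicle, 0.408 ± 0.011% in WT-GR Dex and 0.399 ± 0.018% in WT-GR vehicle (SD, n = 3 each). The spread within WT-GR groups was wider than that within S134A-GR groups. In a culture of cells, less RNA per cell and fewer cells with that RNA cannot be told apart.

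The ratio of summed RNA reads of large-subunit genes to those of small-subunit genes differed between the genotypes. The summed values of large-subunit genes over those of small-subunit genes, by structure, were 2.026, 2.05 and 2.041 in S134A-GR Dex libraries, against 2.242, 2.178 and 2.162 in WT-GR Dex libraries. In vehicle the ratio was 2.067, 2.09 and 2.048 in S134A-GR libraries, against 2.167, 2.141 and 2.161 in WT-GR libraries. All 6 S134A-GR values lay below all 6 WT-GR values, and a change in library scaling cannot alter this ratio. It is a sum over members and is given without a test. Dex and vehicle values overlapped within each genotype.

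**Figure D2:**
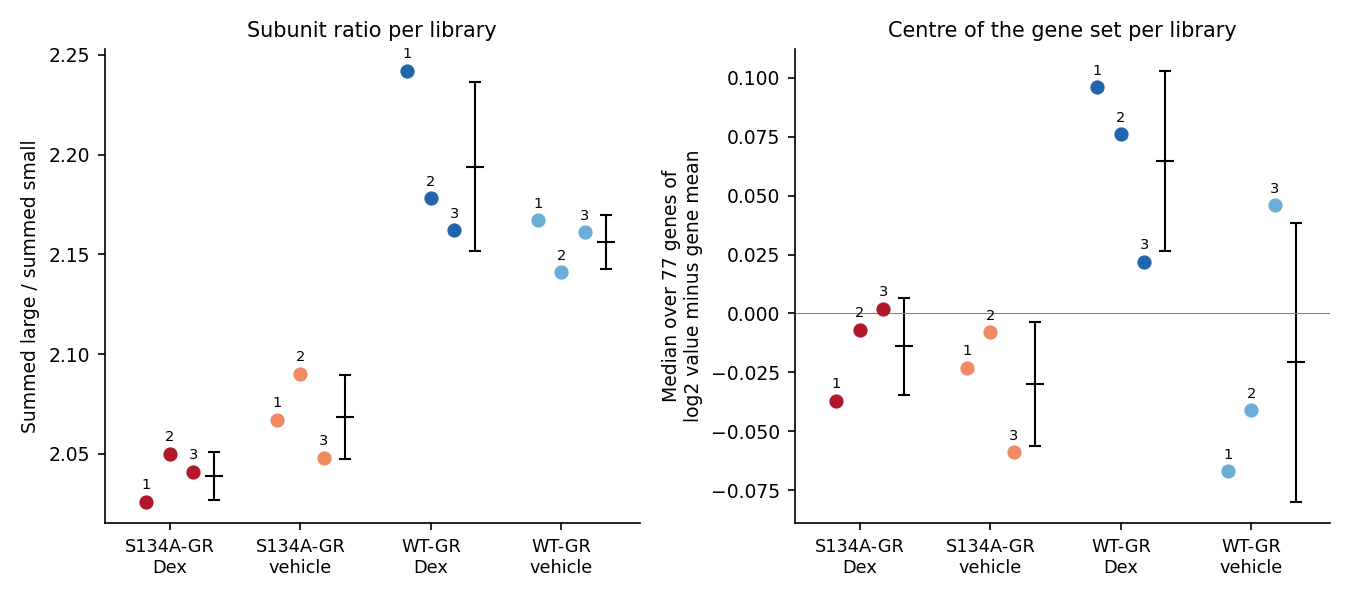
Left, summed normalised reads of large-subunit genes over those of small-subunit genes in each library; right, the median over the 77 genes of the log2 value minus that gene's mean over 12 libraries. Points are libraries numbered by replicate, and the bar beside each group is the mean ± SD (n = 3). The ratio is lower in all 6 S134A-GR libraries, and WT-GR vehicle replicate 3 stands above replicates 1 and 2 on the right.

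In WT-GR cells Dex was followed by small changes, most of them upward. limma called 16 members higher and 4 lower at an adjusted p under 0.05, or 20 of 77, against 27.9% of all tested genes. Of all tested genes 13.9% rose and 14.0% fell. The members' median log2 change was 0.11, against -0.02 for all tested genes, and 59 of 77 were above 0. Values did not overlap for 20 higher and 3 lower members, against 35.1% of all tested genes in either direction. No member changed by 2-fold or more, as 3.65% of all tested genes did. Without WT-GR Dex replicate 3 the members called higher numbered 31, and without WT-GR vehicle replicate 1 or 2 they numbered 6. The share of all tested genes called in these fits is not given here, so a general change in calls cannot be told apart.

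The genes that rose in WT-GR cells were MRPL9, MRPL10, MRPL15, MRPL24, MRPL27, MRPL32, MRPL34, MRPL38, MRPL51 and MRPL53, and MRPS5, MRPS15, MRPS18A, MRPS21, MRPS23 and MRPS28. By structure, 11 of 50 large-subunit and 5 of 26 small-subunit genes rose, and 2 of each fell. Of the 47 members of bacterial families, 12 rose and 3 fell, and of the 28 members known only from mitochondria, 4 rose and 1 fell. The counts moved with the scaling: with edgeR on recovered reads scaled by library size only, 6 members were higher and 5 lower, against 9.07% and 18.9% of all tested genes. The members' median change was then 0.04, beside -0.072 for all tested genes, so it lay above that of all tested genes under both scalings.

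MRPL32 (chr7:42932200-42948958, GRCh38) had the largest rise that passed the test. The changes of MRPS24 (0.45) and MRPL41 (0.35) were larger and did not pass (limma adjusted p = 0.176 and 0.0649). Its product is a large-subunit protein whose trimming by a mitochondrial protease gates ribosome assembly in yeast and mouse. It had 3534, 3733 and 3736 normalised reads in WT-GR Dex libraries, against 2891, 2982 and 3178 in WT-GR vehicle libraries. The groups did not overlap, and the log2 change was 0.28 ± 0.05 (SE; limma adjusted p = 0.00171). In S134A-GR cells its values were 3129, 3175 and 3066 in Dex, against 2907, 3096 and 2828 in vehicle, a log2 change of 0.09 (limma adjusted p = 0.366).

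MRPL38, a large-subunit protein with no bacterial counterpart, had 7718, 7174 and 6188 in WT-GR Dex, against 5533, 5519 and 6344 in WT-GR vehicle (log2 change 0.27, limma adjusted p = 0.0237). MRPL34, of a bacterial family of the large subunit, had 4956, 4759 and 4036 in WT-GR Dex, against 3537, 3762 and 4076 in WT-GR vehicle (0.27, limma adjusted p = 0.0266). For both genes WT-GR Dex replicate 3 lay within the vehicle range. MRPS21, a small-subunit protein, did not overlap, with 2090, 2242 and 2101 in WT-GR Dex against 1607, 1718 and 2015 in WT-GR vehicle (0.27, limma adjusted p = 0.0272). These calls are thin: all 3 were lost without WT-GR vehicle replicate 1 (limma adjusted p = 0.0832 for MRPL38, 0.104 for MRPL34 and 0.117 for MRPS21) and without WT-GR vehicle replicate 2 (0.0942, 0.0767 and 0.0933). They were also lost without WT-GR Dex replicate 2 (0.0685, 0.0845 and 0.0859), and those of MRPL38 and MRPL34 without replicate 1 (0.0967 and 0.103).

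MRPL15, a core protein of the large subunit on chromosome 8, was the 1 member called higher with Dex in both genotypes. It had 5495, 5453 and 5719 in WT-GR Dex, against 4450, 4646 and 5017 in WT-GR vehicle (log2 change 0.24 ± 0.05 (SE), limma adjusted p = 0.00247). In S134A-GR cells it had 6032, 5961 and 5873 in Dex, against 5255, 5342 and 5425 in vehicle (0.16 ± 0.05 (SE), limma adjusted p = 0.042). Dex and vehicle values did not overlap in either genotype. The call in S134A-GR cells was lost without any 1 of the 6 S134A-GR libraries and without WT-GR vehicle replicate 2, with limma adjusted p from 0.0637 to 0.152.

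MRPS6 (chr21:34073224-34143034, GRCh38), a small-subunit protein, was the 1 member called lower with Dex in both genotypes. It had 2020, 2002 and 1880 in WT-GR Dex, against 2630, 2553 and 2878 in WT-GR vehicle, a log2 change of -0.45 ± 0.06 (SE; limma adjusted p = 0.000115). In S134A-GR cells it had 1636, 1706 and 1721 in Dex, against 1965, 1890 and 2052 in vehicle, a log2 change of -0.22 ± 0.06 (SE; limma adjusted p = 0.0236). Neither pair of groups overlapped. SLC5A3, an inositol transporter gene on the same strand, overlaps MRPS6 exons by at most 294 bases. SLC5A3 fell in WT-GR cells to 2241 ± 304 in Dex, against 3574 ± 935 in vehicle (SD, n = 3 each, log2 change -0.65, limma adjusted p = 0.00567). Its part in the MRPS6 values was not tested. The MRPS6 call in S134A-GR cells was lost without S134A-GR Dex replicate 1, 2 or 3 or S134A-GR vehicle replicate 1 or 3 (limma adjusted p from 0.0517 to 0.113).

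The other members that fell in WT-GR cells were MRPS10, MRPL19 and MRPL42. MRPS10, a small-subunit protein of a bacterial family, had 7338, 8231 and 8084 in WT-GR Dex, against 9310, 9424 and 9382 in WT-GR vehicle (log2 change -0.25, limma adjusted p = 0.00563). MRPL42, with no bacterial counterpart, had 3621, 4174 and 3962 in WT-GR Dex, against 4575, 4666 and 4648 in WT-GR vehicle (-0.24, limma adjusted p = 0.00512). Both showed groups that did not overlap. MRPL19, a large-subunit protein, had 3423, 3657 and 4272 in WT-GR Dex, against 4665, 4532 and 4211 in WT-GR vehicle (-0.25, limma adjusted p = 0.044), with an overlap at WT-GR Dex replicate 3. Its call was lost without replicate 1 or 2 of WT-GR Dex or of WT-GR vehicle, replicate 2 of S134A-GR Dex, or replicate 2 or 3 of S134A-GR vehicle (limma adjusted p from 0.0544 to 0.164).

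**Figure D3:**
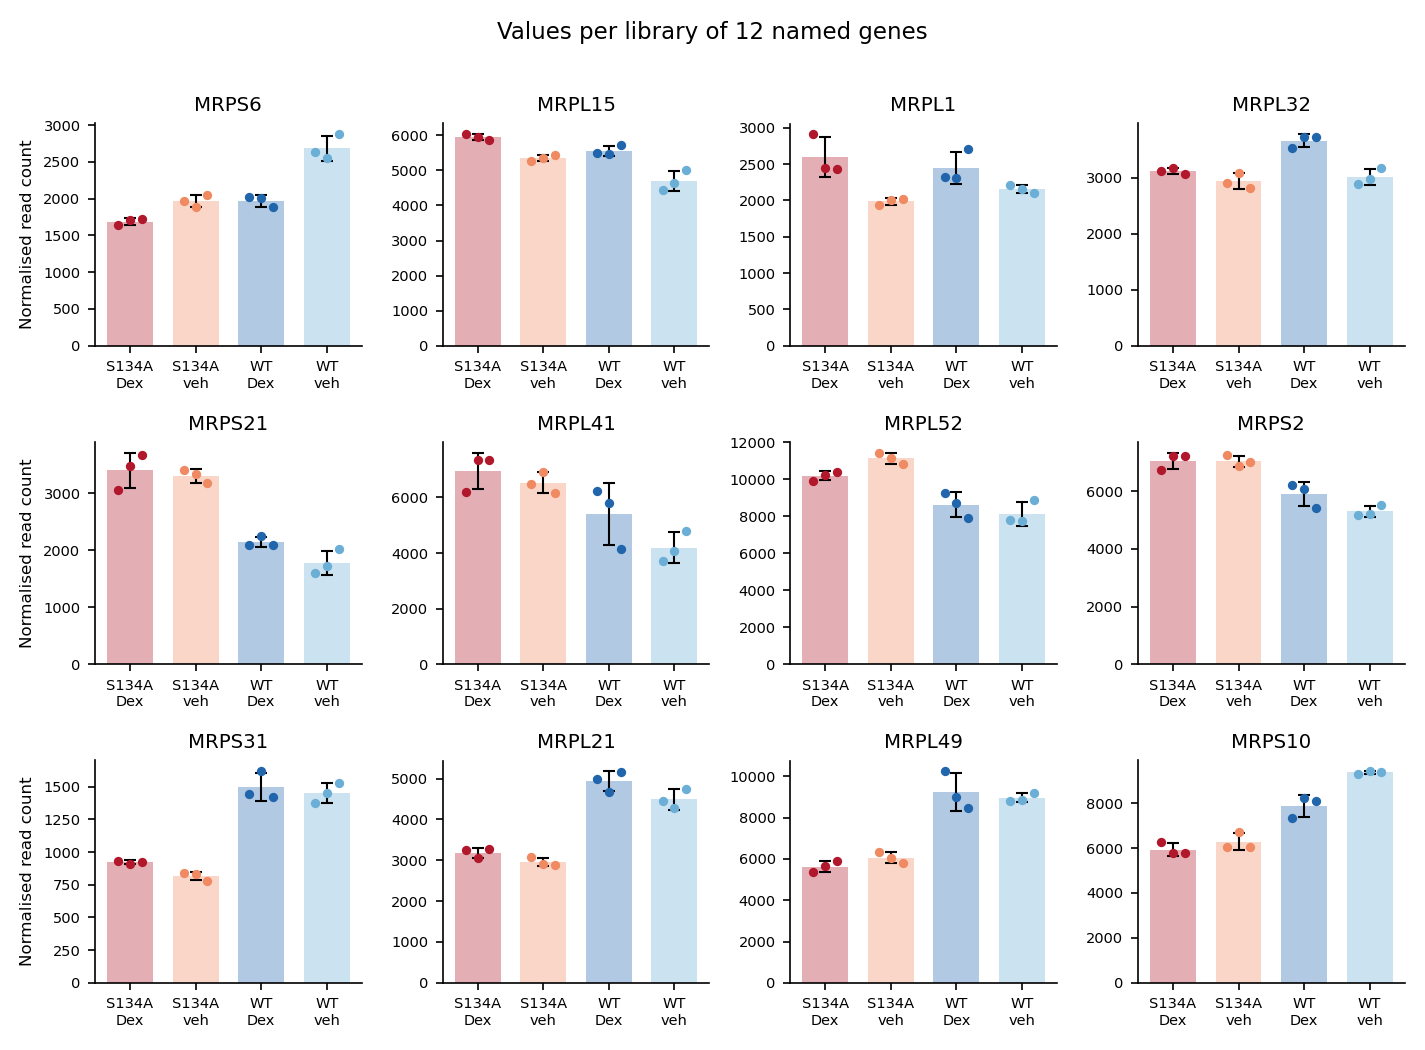
Normalised read counts of 12 named genes; bars are group means, error bars the SD (n = 3), and points the libraries. MRPS6 is lower and MRPL15 higher with Dex in both genotypes. MRPS21 is higher in S134A-GR cells, as is MRPL41 in vehicle, while its values overlap in Dex. MRPS31, MRPL21, MRPL49 and MRPS10 are lower in S134A-GR cells.

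In S134A-GR cells few members responded to Dex. limma called 2 higher and 3 lower, 6.49% of the members against 15.7% of all tested genes, of which 7.99% rose and 7.76% fell. Values did not overlap for 12 higher and 9 lower members, against 38.6% of all tested genes, and no member changed by 2-fold, as 2.59% of all tested genes did. The median log2 change was 0.003, against -0.016 for all tested genes. Beside MRPL15 and MRPS6, the calls were MRPL1, MRPL14 and MRPL17, all large-subunit proteins of bacterial families. Without replicate 1 of S134A-GR vehicle or of S134A-GR Dex, 1 member was called higher and 1 lower. When replicate 3 of S134A-GR Dex, or replicate 2 or 3 of S134A-GR vehicle, was left out, 1 was called higher. The share of all tested genes in these fits is not given here.

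MRPL1, the protein of the L1 stalk near the exit site of transfer RNA, had 2913, 2443 and 2438 in S134A-GR Dex, against 1933, 2005 and 2022 in S134A-GR vehicle (log2 change 0.38 ± 0.08 (SE), limma adjusted p = 0.00354). In WT-GR cells it had 2320, 2310 and 2702 in Dex, against 2216, 2161 and 2097 in vehicle (0.18, limma adjusted p = 0.111). The groups did not overlap in either genotype. MRPL17 had 7073, 6735 and 7039 in S134A-GR Dex, against 8063, 8449 and 8115 in S134A-GR vehicle (-0.24, limma adjusted p = 0.00251). MRPL14 had 5402, 6140 and 6398 in S134A-GR Dex, against 7207, 7304 and 6783 in S134A-GR vehicle (-0.25, limma adjusted p = 0.0228). Both pairs of groups were apart, but the MRPL14 call was lost without S134A-GR Dex replicate 1 (limma adjusted p = 0.101) or S134A-GR vehicle replicate 1 or 2 (0.0843 and 0.0916).

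The Dex responses of the genotypes were compared directly, as S134A-GR response minus WT-GR response. limma called 0 members, against 0.414% of all tested genes. edgeR with TMM, edgeR by library size and DESeq2 also called 0, against 0.382%, 0.526% and 3.17% of all tested genes. At an unadjusted limma p under 0.05 there were 19, against 17.5% of all tested genes. With library weights limma called 1 member higher and 25 lower, against 17.9% of all tested genes in either direction. The members' median difference was -0.118, against 0 for all tested genes, and 57 of 77 were below 0. Without weights, a response called in 1 genotype and missed in the other is therefore no shown difference: for MRPL32 the difference was -0.20 ± 0.08 (SE; limma adjusted p = 0.232), and for MRPS6 it was 0.23 ± 0.09 (SE; limma adjusted p = 0.228). Without WT-GR Dex replicate 3, limma called 9 members lower, against 10.2% of all tested genes, and without WT-GR Dex replicates 2 and 3 it called 2 higher and 14 lower, against 16.2%.

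**Figure D4:**
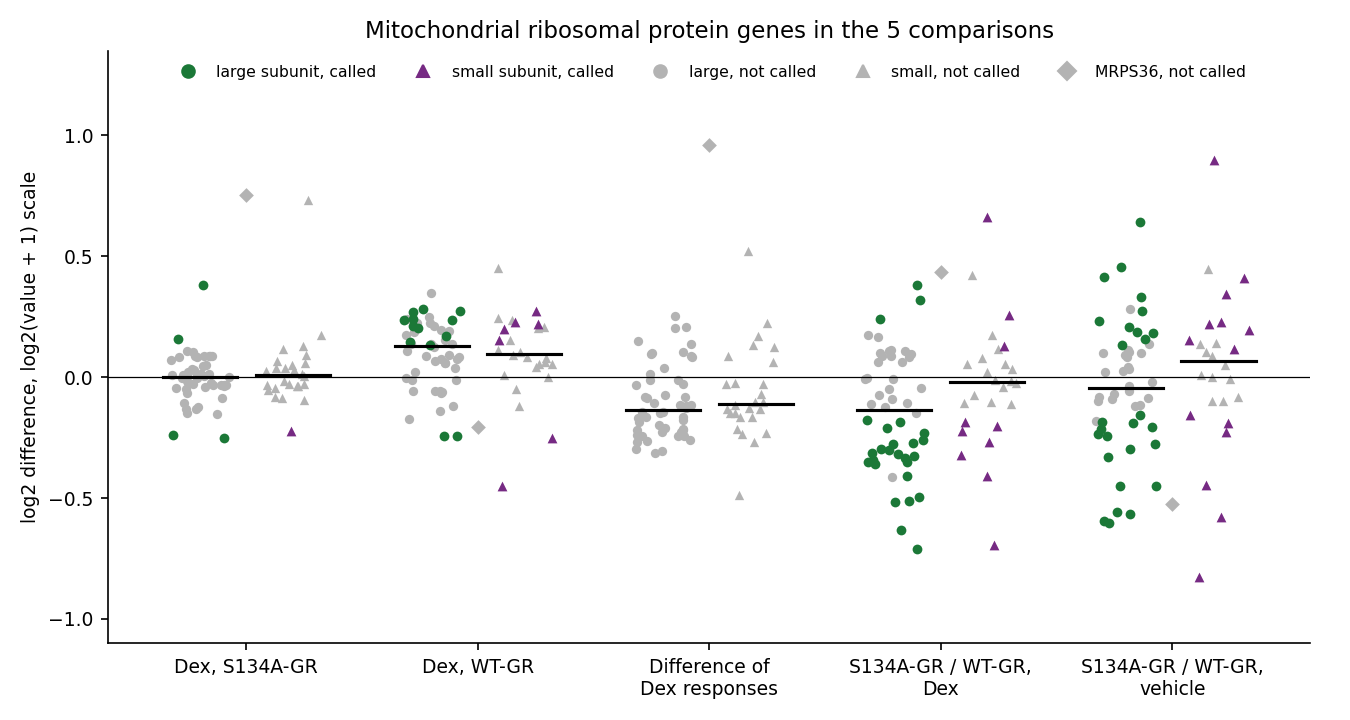
log2 difference of each member on the log2(value + 1) scale in the 5 comparisons; coloured points passed a limma adjusted p of 0.05, horizontal bars are medians by subunit, and the diamond is MRPS36. Genotype differences, to the right, spread more widely than Dex responses, and no member is coloured for the difference of responses.

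More members were called between the genotypes than with Dex. In Dex limma called 6 members higher and 30 lower in S134A-GR cells, 46.8% of the members against 49.7% of all tested genes, of which 23.4% were higher and 26.3% lower. In vehicle it called 19 higher and 22 lower, 53.2% against 50.5%, of which 23.8% were higher and 26.7% lower. The members' median log2 difference was -0.001 in vehicle and -0.09 in Dex, against 0.011 for all tested genes in both. At 1.5-fold or more, limma called 5 members in vehicle and 4 in Dex, against 17.9% and 18.2% of all tested genes, and at 2-fold none, against 8.49% and 9.53%. Scaled by library size only, edgeR called 19 higher and 17 lower in Dex, against 33.5% and 18.1% of all tested genes, and 25 higher and 15 lower in vehicle, against 30.4% and 20.6%. That scaling set the median of all tested genes to 0.115 in Dex and 0.086 in vehicle, beside 0.022 and 0.074 for the members. Under both scalings the members' median lay below that of all tested genes. Without WT-GR vehicle replicate 1 or 2 the members called higher in vehicle numbered 12, and the share of all tested genes there is not given here.

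The same 6 members were higher in S134A-GR cells in both treatments: MRPL41, MRPL50, MRPL52, MRPS2, MRPS16 and MRPS21. A further 19 were lower in both, and none was called in opposite directions. Joint calls over all tested genes were not counted, so these counts do not set the members apart. Of all tested genes, limma called 50.5% in vehicle and 49.7% in Dex. The vehicle and Dex comparisons share no library. Values did not overlap between the genotypes for 23 higher and 27 lower members in vehicle, where 64.3% of all tested genes did not overlap, and for 9 higher and 31 lower members in Dex, against 52.4%.

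MRPS21 (chr1:150293720-150308979, GRCh38) had the largest genotype rise. It had 3413, 3331 and 3175 in S134A-GR vehicle, against 1607, 1718 and 2015 in WT-GR vehicle, a log2 difference of 0.90 ± 0.08 (SE; limma adjusted p = 1.56e-06). In Dex it had 3065, 3487 and 3666 in S134A-GR cells, against 2090, 2242 and 2101 in WT-GR cells, a log2 difference of 0.66 (limma adjusted p = 2.42e-05). All 6 S134A-GR values lay above all 6 WT-GR values.

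MRPL41 (chr9:137551199-137552555, GRCh38), a large-subunit protein with no bacterial counterpart, had 6495, 6928 and 6167 in S134A-GR vehicle, against 3720, 4086 and 4791 in WT-GR vehicle (log2 difference 0.64, limma adjusted p = 0.00114). In Dex it had 6196, 7333 and 7336 in S134A-GR cells, against 6240, 5808 and 4146 in WT-GR cells (0.38, limma adjusted p = 0.0275). The Dex values overlapped, and that call was lost without WT-GR Dex replicate 3 (0.20, limma adjusted p = 0.106) or S134A-GR Dex replicate 2 or 3 (0.34, limma adjusted p = 0.087 and 0.0877). MRPS2, a small-subunit protein whose gene is also on chromosome 9, had 7247, 6856 and 6999 in S134A-GR vehicle, against 5172, 5196 and 5519 in WT-GR vehicle (0.41, limma adjusted p = 4.57e-05), and its difference in Dex was 0.26 (limma adjusted p = 0.00178).

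MRPL52 had 11441, 11126 and 10848 in S134A-GR vehicle, against 7771, 7747 and 8871 in WT-GR vehicle (log2 difference 0.46, limma adjusted p = 4.77e-05), and differed by 0.24 in Dex (limma adjusted p = 0.00602), or by 0.14 without WT-GR Dex replicates 2 and 3 (limma adjusted p = 0.144). MRPL50 differed by 0.32 in Dex (limma adjusted p = 0.00139) and by 0.23 in vehicle (limma adjusted p = 0.00988). MRPL55, a large-subunit protein, was called in vehicle, with 2636, 2523 and 2511 in S134A-GR cells against 1722, 1780 and 2294 in WT-GR cells (0.42, limma adjusted p = 0.0179). That call was lost without WT-GR vehicle replicate 1 or 2 or S134A-GR vehicle replicate 1 (limma adjusted p = 0.0746, 0.0703 and 0.0559).

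MRPS31 (chr13:40729135-40771173, GRCh38), a small-subunit protein known only from mitochondria, had the largest fall in vehicle. It had 843, 830.2 and 781 in S134A-GR vehicle, against 1375, 1449 and 1531 in WT-GR vehicle, a log2 difference of -0.83 ± 0.07 (SE; limma adjusted p = 7.29e-07). In Dex it had 933, 908 and 928 in S134A-GR cells, against 1446, 1620.1 and 1422 in WT-GR cells, a difference of -0.69 (limma adjusted p = 3.64e-06). MRPS10 had 6041, 6719 and 6069 in S134A-GR vehicle, against 9310.4, 9424 and 9382 in WT-GR vehicle (-0.58, limma adjusted p = 2.51e-06). MRPL19 had 2749, 3029 and 3110.1 in S134A-GR vehicle, against 4665, 4532 and 4211 in WT-GR vehicle (-0.59, limma adjusted p = 5.86e-05). The genotypes were apart in each of these comparisons.

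Among the lowest in S134A-GR cells, 3 large-subunit genes lie on the long arm of chromosome 11: MRPL21, of a bacterial family, and MRPL48 and MRPL49, known only from mitochondria. MRPL21 (chr11:68891276-68903835, GRCh38) had 3071, 2904 and 2891 in S134A-GR vehicle, against 4445, 4269.8 and 4754 in WT-GR vehicle (log2 difference -0.60, limma adjusted p = 1.64e-06). MRPL49 (chr11:65122183-65127371) had 5347, 5636 and 5910.0 in S134A-GR Dex, against 10260.2, 8999 and 8464 in WT-GR Dex (-0.71, limma adjusted p = 1.4e-06). MRPL48 (chr11:73787316-73865133) had 2582, 2418 and 2415 in S134A-GR Dex, against 3314, 3431 and 3898 in WT-GR Dex (-0.52, limma adjusted p = 3.65e-05). None of these groups overlapped. FAU and SYVN1 on the opposite strand overlap MRPL49 exons, by at most 114 bases each. FAU was lower in S134A-GR cells too, with log2 differences of -0.64 in Dex (limma adjusted p = 2.92e-06) and -0.33 in vehicle (limma adjusted p = 0.000817). SYVN1 was also lower, by -0.40 in Dex (limma adjusted p = 0.000152) and -0.34 in vehicle (limma adjusted p = 0.000518).

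The genotype differences of the members followed those of the genes around them, a pattern described after the values were seen. For each member the median log2 difference was taken over the other tested protein-coding genes within 5 Mb on either side, 11 to 209 genes. Over the 77 members this median and the member's own difference correlated at r = 0.739 (rho = 0.736) in vehicle and at r = 0.736 (rho = 0.722) in Dex. The sign was shared by 77.9% of members in vehicle and 81.8% in Dex. Over 13403 placed genes, each against its own neighbours, the same correlation was 0.274 (rho = 0.458) in vehicle and 0.225 (rho = 0.411) in Dex. The sign was shared by 67.1% of these genes in vehicle and 67.6% in Dex. For the Dex response the correlation over the members was 0.086 (rho = 0.122) in S134A-GR cells and 0.459 (rho = 0.462) in WT-GR cells. Over the placed genes it was 0.062 (rho = 0.079) and 0.145 (rho = 0.272). The placed genes were not matched to the members in level or in spread between replicates, which was smaller for the members. Whether members follow their neighbours more closely than similar genes do was therefore not tested. The points share the 12 libraries, and members near each other share neighbours, so no p is given.

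**Figure D5:**
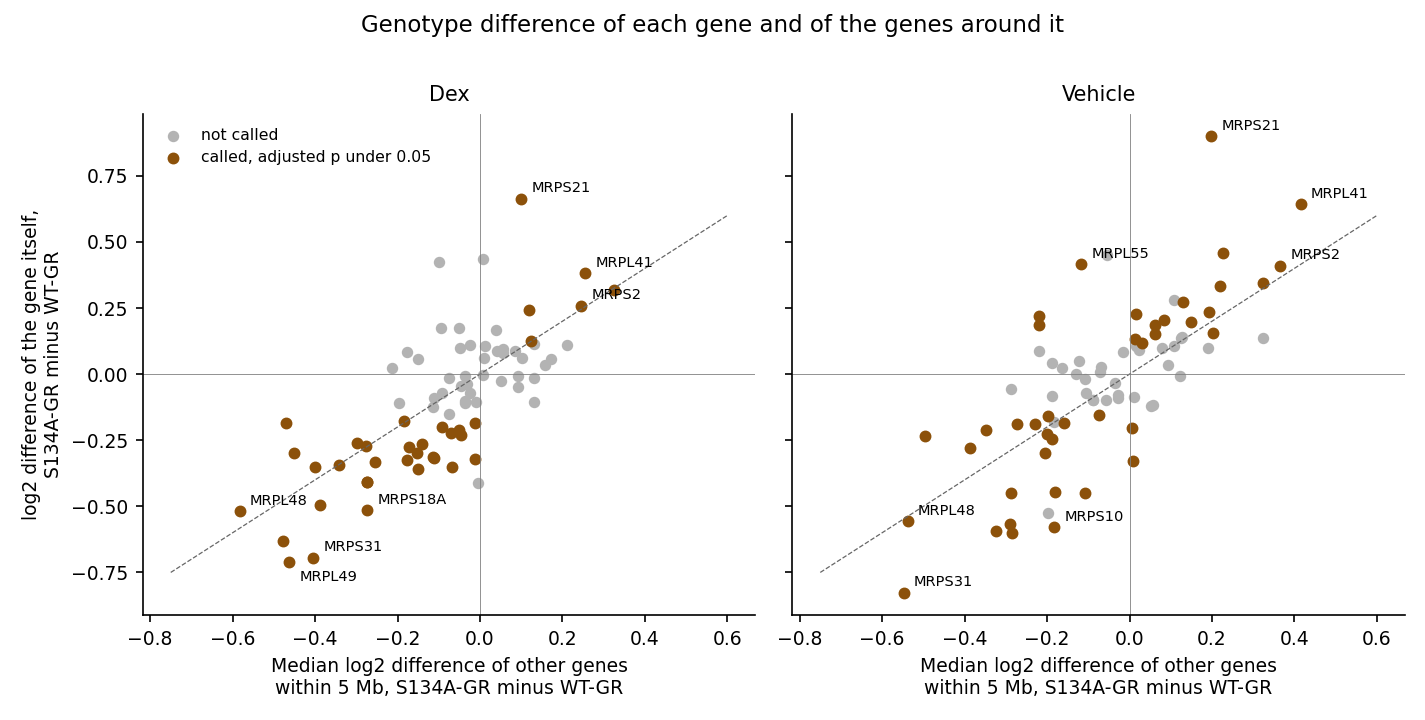
log2 difference of each of the 77 members between S134A-GR and WT-GR cells, against the median difference of the other tested protein-coding genes within 5 Mb, in Dex (left) and vehicle (right); the dashed line marks equal values. Points rise along the line, with r = 0.736 in Dex and 0.739 in vehicle, and MRPS21 stands above it in both.

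Named members show the pattern, with neighbours counted as lower or higher when called at a limma adjusted p under 0.05. Of all tested genes 26.7% were called lower and 23.8% higher in vehicle. Around MRPS31 on chromosome 13, 33 of 40 other genes were lower in S134A-GR vehicle and 0 were higher, with a median of -0.55 beside -0.83 for MRPS31. Around MRPL48 on chromosome 11, 55 of 74 were lower and 2 higher, with a median of -0.54 beside -0.56. Around MRPL41 on chromosome 9, 63 of 88 were higher and 2 lower, with a median of 0.42 beside 0.64, and around MRPS2 the median was 0.37 beside 0.41.

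By chromosome, the median difference of the members had the sign of the median of the other tested genes on 21 of 21 chromosomes in Dex and on 17 of 21 in vehicle. The shares that follow are of called genes, beside 26.7% lower and 23.8% higher of all tested genes in vehicle. In vehicle, on chromosome 13, 79.1% of 230 other tested genes were lower in S134A-GR cells, and both members there were lower, MRPS31 and MRPL57. On chromosome 11, 60.0% of 758 other genes were lower, with 4 of 7 members lower and 1 higher. On chromosome 9, 55.2% of 522 other genes were higher, as were all 3 members, MRPL41, MRPL50 and MRPS2. On chromosome 2, 55.1% of 911 were lower, with 4 of 8 members lower and 0 higher. Chromosome 1 went the other way, with 4 of 8 members higher and 1 lower while 31.4% of 1385 other genes were lower and 19.2% higher. On chromosome 4, 37.5% of 504 other genes were higher and neither of its members was called. Some members stood apart from their surroundings. MRPS21, at 0.90, had a neighbour median of 0.20, MRPL55, at 0.42, had one of -0.12, and MRPS10, at -0.58, had one of -0.18.

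Head-to-head partners, which 18 members had, were compared next. In 6 pairs both the member and its partner were called in vehicle, and in 5 pairs in Dex, and every such pair was called in 1 direction. In the remaining pairs at least 1 gene was not called. The same count over all head-to-head genes was not made, so nothing particular to the members is shown. MRPL21 and IGHMBP2, 7 bp apart, differed by -0.60 and -0.54 in vehicle and by -0.63 and -0.72 in Dex. MRPL57 and SKA3, 43 bp apart, differed by -0.23 and -0.70 in vehicle. With Dex in WT-GR cells 1 pair was called for both genes, and in opposite directions: MRPL27 at 0.17 and EME1 at -0.24.

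The 3 human paralogs of bacterial protein S18 differed in level and behaviour. MRPS18A, which sits in the large subunit, had 3713, 3401 and 3359 in WT-GR Dex, against 2990, 2912 and 3199 in WT-GR vehicle (log2 change 0.20, limma adjusted p = 0.0227), a call lost without WT-GR vehicle replicate 1 or 2 or WT-GR Dex replicate 1 (limma adjusted p = 0.0677, 0.0986 and 0.0789). It was lower in S134A-GR cells, with 2315, 2487 and 2535 in S134A-GR Dex against those WT-GR Dex values (-0.51, limma adjusted p = 1.13e-05), and by -0.24 in vehicle (limma adjusted p = 0.00385). MRPS18C ran from 1040.4 to 1219.7 over the 12 libraries, and no comparison called it; 1296 bases of its exons overlap ABRAXAS1 on the opposite strand. MRPS18B ran from 7.13 to 21.3 over the 12 libraries, and its largest log2 difference, 0.73 ± 0.50 (SE) with Dex in S134A-GR cells, did not pass (limma adjusted p = 0.422).

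Other members of special position gave few calls. MRPS30, named small but seated in the large subunit, was lower in S134A-GR vehicle, with 2827, 2878 and 2926 against 3215, 3160.0 and 3234 in WT-GR vehicle (log2 difference -0.16, limma adjusted p = 0.022); the call was lost without WT-GR vehicle replicate 1 or 3 or S134A-GR vehicle replicate 1 or 2 (limma adjusted p from 0.053 to 0.0783). MRPS36 had a log2 change of 0.75 ± 0.24 (SE) with Dex in S134A-GR cells, which missed the threshold (limma adjusted p = 0.0507). The stalk base protein MRPL10 rose with Dex in WT-GR cells, with 7095, 6907 and 6482 in Dex against 5672, 5864 and 6157 in vehicle (0.21, limma adjusted p = 0.00927). Its stalk partner MRPL12 had 12524, 11162 and 9331 in WT-GR Dex, against 8926, 8914 and 9954 in WT-GR vehicle (0.24, limma adjusted p = 0.0693). MRPL12 was lower in S134A-GR Dex, with 7915, 9272 and 9273 beside those WT-GR Dex values (-0.31, limma adjusted p = 0.0127), a call lost without WT-GR Dex replicate 1 or S134A-GR Dex replicate 1 (limma adjusted p = 0.0582 and 0.0618).

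Genes that serve the mitoribosome were set beside the 15.7% of all tested genes called with Dex in S134A-GR cells and the 27.9% called in WT-GR cells. Of 24 assembly factors, 0 were called in S134A-GR cells, while 7 rose and 0 fell in WT-GR cells. The largest of these rises was that of RPUSD3, a mitochondrial pseudouridine synthase (log2 change 0.32, limma adjusted p = 0.00234). Of 20 mitochondrial aminoacyl-tRNA synthetases and related enzymes, 2 rose in S134A-GR cells, led by the tyrosine enzyme YARS2 (0.37), and 4 rose in WT-GR cells, led by the threonine enzyme TARS2 (0.32); 0 fell in either. Of 20 genes of mitochondrial transcription and RNA handling, 4 rose and 0 fell in S134A-GR cells, led by TWNK, the mitochondrial DNA helicase listed as C10orf2 (0.30), and 5 rose and 1 fell in WT-GR cells. The rise of POLG, the mitochondrial DNA polymerase, was 0.34 in WT-GR cells, and PNPT1, a mitochondrial RNA exonuclease, fell by 0.38 there. Of 14 translation factors, 1 rose in S134A-GR cells and 2 rose and 1 fell in WT-GR cells. MRRF, the recycling factor, rose in both genotypes, by 0.20 and 0.25 on the log2 scale. The release factor gene MTRF1 fell by 0.30 in WT-GR cells (limma adjusted p = 0.0405). Its change in S134A-GR cells was also -0.30 and missed the threshold (limma adjusted p = 0.0579). None of the 6 mitoribosomal proteins with other symbols was called with Dex.

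Among 10 regulators of mitochondrial biogenesis, 3 rose in S134A-GR cells and 4 in WT-GR cells with Dex, and 0 fell. PPARGC1A, which encodes the coactivator PGC-1alpha, rose most. It had 537, 530.3 and 548 in S134A-GR Dex, against 199.8, 208 and 202 in S134A-GR vehicle (log2 change 1.40, limma adjusted p = 3.58e-06). In WT-GR cells it had 536, 545 and 599 in Dex, against 243, 196 and 158 in vehicle (1.51, limma adjusted p = 1.8e-06). Both pairs of groups were far apart, and the difference of the responses, -0.11, missed the threshold (limma adjusted p = 0.791). PPRC1, a related coactivator, rose by 0.20 in S134A-GR and 0.19 in WT-GR cells, and MYC, a transcription factor of growth genes, by 0.89 and 0.81.

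Between the genotypes these lists were called in both directions in vehicle, where 23.8% of all tested genes were higher and 26.7% lower. Of the 24 assembly factors 6 were higher and 6 lower in S134A-GR cells, from the RNA helicase DDX28 (log2 difference 0.54) to TFB1M, the methyltransferase of the small-subunit ribosomal RNA (-0.63). Of the 14 translation factors 6 were higher and 6 lower, with the initiation factor MTIF2 at -0.57. Of the 20 tRNA enzymes 4 were higher and 5 lower, from GATB, an amidotransferase subunit (0.62), to the asparagine enzyme NARS2 (-0.76). Of the 20 genes of transcription and RNA handling 6 were higher and 4 lower, with PNPT1 at -0.80. Of the 10 regulators 1 was higher and 4 lower, with the nuclear receptor ESRRA at -0.71. In Dex, where 23.4% of all tested genes were higher and 26.3% lower, the counts were 4 and 7, 3 and 6, 4 and 8, 7 and 3, and 1 and 2, higher and lower in the same order of lists. Of the 6 mitoribosomal proteins with other symbols, S134A-GR cells had more PTCD3 (log2 difference 0.13 in vehicle and 0.26 after Dex), and 2 were lower in Dex, led by AURKAIP1 (-0.39).

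Cytosolic ribosomal protein genes and respiratory chain genes were set beside the members. With Dex in S134A-GR cells 0 of 81 cytosolic ribosomal protein genes and 0 of 85 genes of the respiratory chain and ATP synthase were called, against 15.7% of all tested genes, and 3 and 2 had an unadjusted limma p under 0.05, against 25.8%. In WT-GR cells 39 cytosolic ribosomal protein genes rose and 1 fell, and 18 respiratory chain genes rose and 0 fell, where 13.9% of all tested genes rose and 14.0% fell. Their median log2 changes there were 0.16 and 0.11, beside 0.11 for the mitoribosomal genes. Between the genotypes in Dex, 4 cytosolic ribosomal protein genes were higher and 55 lower in S134A-GR cells, and 6 respiratory chain genes were higher and 38 lower. Of all tested genes 23.4% were higher and 26.3% lower. Median log2 differences of the cytosolic and the respiratory chain genes were -0.26 and -0.14, beside -0.09 for the mitoribosomal genes. Scaled by library size only, edgeR called 15 cytosolic ribosomal protein genes higher and 1 lower, and 6 respiratory chain genes higher and 1 lower, with Dex in WT-GR cells. Of all tested genes it called 9.07% higher and 18.9% lower there. In that scaling the genotype counts in Dex were 8 higher and 40 lower for the first set and 17 higher and 22 lower for the second. The shares of all tested genes were 33.5% higher and 18.1% lower. No test of these sets against each other was made.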

How the data were processed

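RNA of 12 libraries, 3 in each of 4 groups, was sequenced as 75-base pairs with a TruSeq kit, per the labels' protocols. The deposited files hold a normalised signal for each gene: dividing by the step of each library gave whole-number counts for 100.0% of values, so the authors scaled whole reads by 1 factor per library. FastQC 0.11.7, Subread's featureCounts, DESeq2 1.22.2 and hg38 appear in the submitters' processing notes without a role or order. Aligner, annotation and strand setting: not given in the sources used here. Names of Dex values come from the vehicle files by line order: 26485 names stand beside 19907 values, and the lists part at line 9.

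The main test was limma 3.58.1 (R 4.3.3, trend) on log2(value + 1), which understates changes of low genes, over 15957 genes that reached 10 in 3 or more libraries. All 12 libraries entered 1 fit, and two-sided p-values were adjusted by Benjamini-Hochberg over all genes at 0.05. Alternatives were edgeR 4.0.16 and DESeq2 1.42.0 on recovered reads, a pseudocount of 10, no filter, only the compared groups, library weights, a replicate block, and leaving out libraries. On those reads edgeR (TMM) found 4440 genes changed by Dex under WT-GR and 2528 under S134A-GR, 61 whose response differed, and 8021 (vehicle) and 7855 (Dex) that separated the genotypes. The script was tested on simulated data. Positions and transcript lengths come from GENCODE 29 and promoters from RefSeq, GRCh38.p14. Named genes are, per comparison, the 5 largest called rises and 5 largest called falls, the S18 paralogs, MRPS30, MRPS36, MRPL10, MRPL12, the 3 highest and 3 lowest levels, and the leading called genes of 6 lists; MRPL23, MRPL27, MRPL45, MRPL57, MYC and the overlapping or head-to-head partners were named after their values were seen. Members and lists were chosen with earlier results of these data known.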

Additional observations from a re-analysis of the deposited data

How the results depend on the processing

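Counts of members called moved under other settings. Shares of all tested genes are printed above for some of these settings only. For the others, a shift of the members cannot be told from a general one. With Dex in WT-GR cells members higher numbered 5 with only the compared groups in the fit, 37 with library weights, 28 without WT-GR Dex replicates 2 and 3, 6 with edgeR by library size, and 6 to 31 when 1 library was left out; members lower numbered 7 when libraries were weighted and 8 when WT-GR Dex replicates 2 and 3 were left out, and the median change was 0.04 by library size. With Dex in S134A-GR cells members higher numbered 4 with only the compared groups, 8 with library weights, and 1 to 3 when 1 library was left out, and members lower 5, 6 and 1 to 3. For the difference of responses library weights called 1 higher and 25 lower, leaving out WT-GR Dex replicates 2 and 3 called 2 higher and 14 lower, and leaving out 1 library called 0 to 9 lower with a median of -0.158 to -0.096. Between the genotypes in vehicle, members higher numbered 31 with library weights and 12 to 21 when 1 library was left out, with a median of 0.074 by library size and -0.024 to 0.056 when 1 library was left out. In Dex they numbered 19, with 17 lower, by library size, where the median was 0.022. Scaled by library size only, edgeR no longer called MRPL34, MRPL38, MRPS18A or MRPS21 with Dex in WT-GR cells, or MRPL15 in S134A-GR cells. Nor did it call MRPS30 between the genotypes in vehicle, or MRPL10 and MRPL12 in Dex. With only the compared groups in the fit, MRPL10, MRPL19, MRPL34, MRPL38, MRPS18A and MRPS21 were not called with Dex in WT-GR cells.

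Same-numbered replicates did not deviate together (r from -0.085 to 0.055 over 18 pairs, 0 over 0.1), so the numbers do not pair the libraries; a replicate block gave 13 higher and 3 lower with Dex in WT-GR cells and 1 higher and 2 lower in S134A-GR cells. Signs turned in comparisons in which the member was not called. With Dex in WT-GR cells, leaving out 1 library gave -0.072 to 0.589 for MRPS18B, -0.02 to 0.034 for MRPS18C and -0.368 to 0.051 for MRPS36; library size gave -0.05 for MRPS18C, and leaving out WT-GR Dex replicates 2 and 3 gave 0.026 for MRPS30. With Dex in S134A-GR cells, leaving out 1 library gave -0.023 to 0.091 for MRPL12 and -0.063 to 0.008 for MRPL10, library size gave -0.006 for MRPL12 and library weights 0.003 for MRPL10. Between genotypes, MRPS18B in vehicle was 0.25 with library weights and -0.572 to 0.282 with 1 library left out. In Dex MRPS18C was -0.006 to 0.076 and MRPS30 -0.029 to 0.04 with 1 library left out, and MRPS30 was 0.0 with edgeR by TMM and 0.111 by library size. The correlation with neighbouring genes stayed between 0.706 and 0.762 in vehicle and between 0.691 and 0.744 in Dex under 23 other settings and windows chosen after seeing the data; for Dex in S134A-GR cells it was -0.05 to 0.155 with 1 library left out and 0.275 with neighbours taken within 2 Mb. The cause of these shifts was not tested.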
